A study of Equus caballus with 28 samples.

Results

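The miR-25/92/363 seed family was followed in the mare and her conceptus on day 13 after ovulation, through 4 mature miRNAs of the horse, eca-miR-25, eca-miR-92a, eca-miR-92b and eca-miR-363 (written below without the species prefix). They are 4 of the 844 miRNAs with a count, of which 690 were known and 154 predicted. Each of the names matched a single row, with no second arm. The members were chosen by name, after their levels in all groups had been seen and for the contrast of miR-92a with miR-92b in conceptus and uterine fluid. Their differences between tissues and fluids are therefore a description. Where a fit counts members past its limits in such a comparison, that count restates the choice of members, and nothing is read from it.

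MicroRNAs guide silencing complexes to messenger RNAs mainly through their seed, bases 2 to 8 of the mature strand, so that miRNAs with the same seed share most of their predicted targets. The members of this family share such a seed but are transcribed from separate loci. miR-92a belongs to the miR-17-92 cluster, which is known for promoting proliferation and restraining apoptosis in embryos and tumours, and to the related miR-106a-363 cluster, which also encodes miR-363. miR-25 is made from an intron of MCM7, a gene of the replicative helicase, together with miR-106b and miR-93, whereas miR-92b is transcribed on its own and is best known from neural progenitors.

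The gene table of RefSeq for the horse assembly TB-T2T shows these neighbourhoods. MIR25 overlapped MCM7 and had 2 other miRNA genes within 10 kb, MIR93 and MIR106B. MIR92A had 5 such neighbours, MIR17, MIR18A, MIR19A, MIR20A and MIR19B. The other copy, MIR92A-2, also had 5, MIR363, MIR19B-2, MIR20B, MIR18B and MIR106A. MIR92B had 0. Mature miR-92a can come from both copies, and the counts hold a single value for them. miR-92a and miR-92b are near-identical in sequence, and how reads matching both were counted is not given in the sources used here, so a share of the reads of either may belong to the other.

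The 28 libraries came from 5 Warmblood mares in a switch-back design. Each mare had a cycle with insemination, with semen of the same stallion, and a cycle without it. All ovulations were induced with hCG, and the label "cyclic" stands for the cycle left unbred. Endometrial biopsies gave 5 pregnant and 4 cyclic libraries, uterine fluid (UF) absorbed by a tampon 5 and 4, embryonic tissue without its capsule 5 and yolk sac (YS) fluid aspirated from the same conceptuses 5. The number in a label was taken as the mare, and mare 5 has no cyclic library. A serum and plasma kit was used for the fluids and a tissue kit for endometrium and embryo, so that site and kit cannot be told apart in any comparison of a fluid with a tissue. In these bulk samples, fewer cells of a type and less RNA per cell cannot be told apart either.

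Library totals lay between 280065 and 590593 reads in pregnant endometrium, 61836 and 371630 in cyclic endometrium, 79173 and 152860 in pregnant UF, 62087 and 226308 in cyclic UF, 28204 and 44768 in embryos and 4352 and 14531 in YS fluid. Levels are given as CPM, the reads of a miRNA scaled by that total, and 3 reads were taken as the floor that the depth can show. The floor rose from 5.08 CPM in the deepest endometrial library to 689 CPM in the shallowest YS fluid. Floors and intervals describe counting error alone, because reads copied by PCR are not separate molecules. Embryo replicate 1 stood apart, with predicted miRNAs making up 36.3% of its reads against 5.02 to 8.67% in the other embryos. YS fluid replicate 2 stood apart as well, with 264130 CPM on 8 miRNAs of the early embryo against 34891 to 71560 CPM in the other YS fluids. The labels were met by those markers, since the same 8 miRNAs summed to at most 32.2 CPM in every uterine library and to at least 12020 CPM in every embryo.

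YS fluid held more of the family than any other site, and nearly all of it was miR-92a. The family took 24.3% ± 5.47 (SD, n = 5) of all miRNA reads in YS fluid and 2.84% ± 0.905 (n = 5) in embryos. In UF it took 4.77% ± 1.85 (n = 4) in cyclic and 3.39% ± 1.68 (n = 5) in pregnant mares. Endometrium took 1.46% ± 0.143 (n = 4) in cyclic and 1.20% ± 0.238 (n = 5) in pregnant mares. On this scale the 5 YS fluids did not overlap with any other library. How far apart the sites lay, and their order, depended on the scaling. With TMM-normalized CPM over the 28 libraries YS fluid was still the highest, at 96173 CPM, but closer to cyclic UF at 67679 CPM, and embryos were the lowest, at 16827 CPM, under pregnant endometrium at 20407 CPM.

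The make-up of the family differed between the sites as much as its level. miR-25 and miR-92a shared the endometrial reads, at 47.5% ± 7.21 and 42.5% ± 5.85 of the family in pregnant mares, while miR-92b held 9.90% ± 3.56 (n = 5). In pregnant UF the leading member was miR-92b, at 61.1% ± 9.69 of the family, followed by miR-92a at 26.9% ± 6.57 and miR-25 at 12.0% ± 4.43 (n = 5). Embryos carried 69.8% ± 4.23 miR-92a and 26.7% ± 2.69 miR-25, with miR-363 at 2.85% ± 2.54 and miR-92b at 0.693% ± 0.433 (n = 5). In YS fluid miR-92a reached 92.7% ± 1.86, miR-25 made up 5.86% ± 1.00 of the family, miR-92b 1.05% ± 1.20 and miR-363 0.418% ± 0.203 (n = 5). These shares are free of the scaling between libraries.

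**Figure D1:**
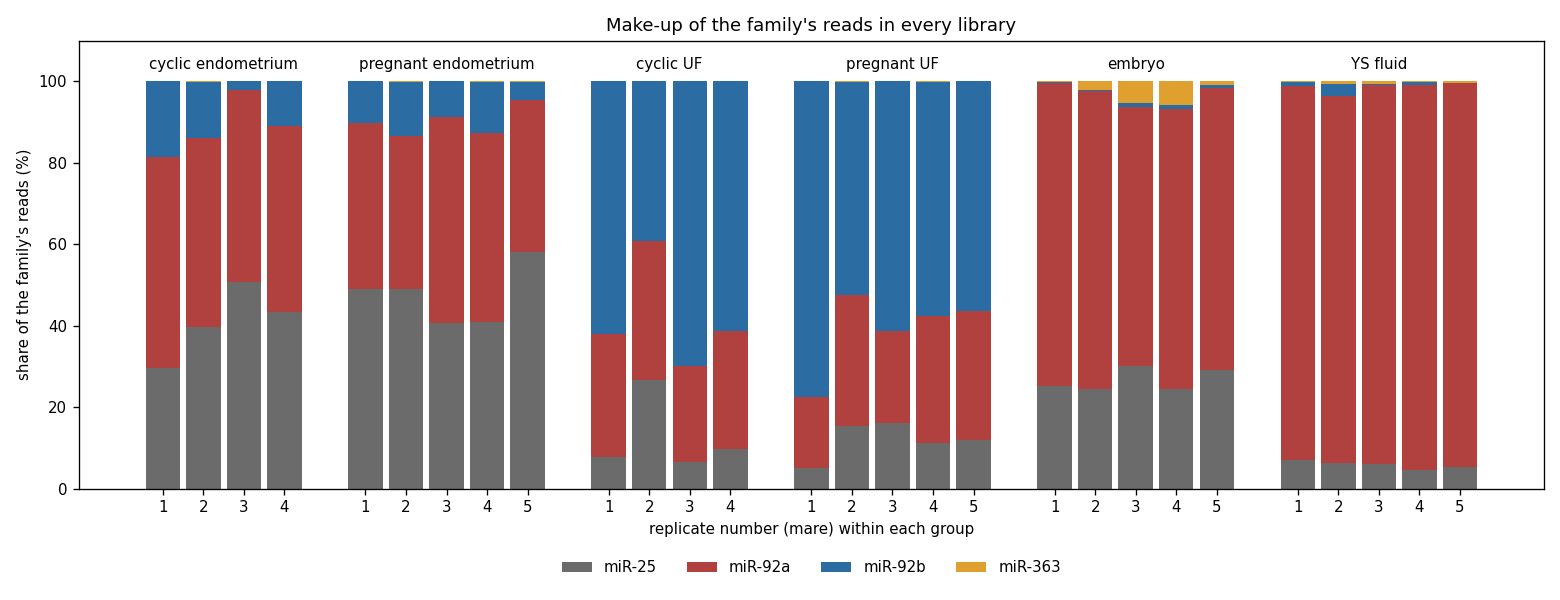
Stacked bars give the share of the family's reads (%, y axis) held by miR-25, miR-92a, miR-92b and miR-363 in each of the 28 libraries (x axis, replicate number within each group). miR-92b is the largest block in all 9 UF libraries, miR-92a in all 10 conceptus libraries, and miR-363 is visible almost only in the embryos.

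miR-92a, the member produced by both polycistronic clusters, was the most abundant known miRNA in all 5 YS fluids. Replicates 1 to 5 of YS fluid held 187739, 175649, 213608, 237822 and 313261 CPM. In the deepest of them, replicate 5, the 4552 reads were 31.3% of the library (95% Wilson interval 30.6 to 32.1%). All 5 values lay above every other library when scaled by library totals, as all CPM below are unless TMM is named.

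Embryos followed with 24784, 18183, 13507, 14202 and 28886 CPM in replicates 1 to 5. In the same conceptus, the level in YS fluid was between 7.58 and 16.7 times that in the embryo (median 10.8), and it was higher in 5 of 5. The rank of miR-92a among the known miRNAs lay between 6 and 15 in the embryos.

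Uterine levels of miR-92a in CPM were lower on average and closer together. Cyclic UF held 19424, 7565, 13465 and 13668 CPM and pregnant UF 11230, 7992, 5410, 8893 and 8905 CPM. Cyclic endometrium held 8523, 6736, 6097 and 6606 CPM and pregnant endometrium 4633, 4160, 6207, 7313 and 3490 CPM. In the order of the means (YS fluid, embryo, cyclic UF, pregnant UF, cyclic endometrium, pregnant endometrium), each pair of neighbours after YS fluid overlapped.

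miR-92b, the member outside the clusters, had a different order, with UF at the top. Cyclic UF held 39892, 8665, 40008 and 28691 CPM in replicates 1 to 4, and pregnant UF 49431, 13047, 14817, 16449 and 15978 CPM in replicates 1 to 5. Every UF library lay above all others, although they differed among themselves by several times, mare 1 being high and mare 2 low in both cycles. Within a mare and cycle, the UF level was between 4.33 and 142.97 times the endometrial level in cyclic mares (median 15.5, higher in 4 of 4) and between 8.17 and 42.5 times in pregnant mares (median 14.0, higher in 5 of 5).

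In endometrium miR-92b was at 3056, 2003, 280 and 1595 CPM in cyclic and 1163, 1479, 1058, 2014 and 424 CPM in pregnant mares. The highest of the cyclic folds came from a low biopsy, that of mare 3 at 280 CPM. The low pregnant biopsy, replicate 5, also held 34349 CPM of the smooth muscle and stroma miRNAs miR-143 and miR-145, against a group median of 8055 CPM, and their part in its miR-92b level was not tested.

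Embryos had the lowest miR-92b levels, with 2, 3, 9, 6 and 14 reads in replicates 1 to 5, or 70.9, 67.0, 249, 208 and 338 CPM. Replicates 1 and 2 were at or under the floor of 3 reads, so the depth limits the embryonic level there. YS fluid held 15, 88, 7, 8 and 10 reads, or 1978, 6088, 536, 1838 and 688 CPM, with replicate 2 far above the rest. YS fluid overlapped with both endometrial groups, and the embryos overlapped with cyclic endometrium only through its low replicate 3.

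**Figure D2:**
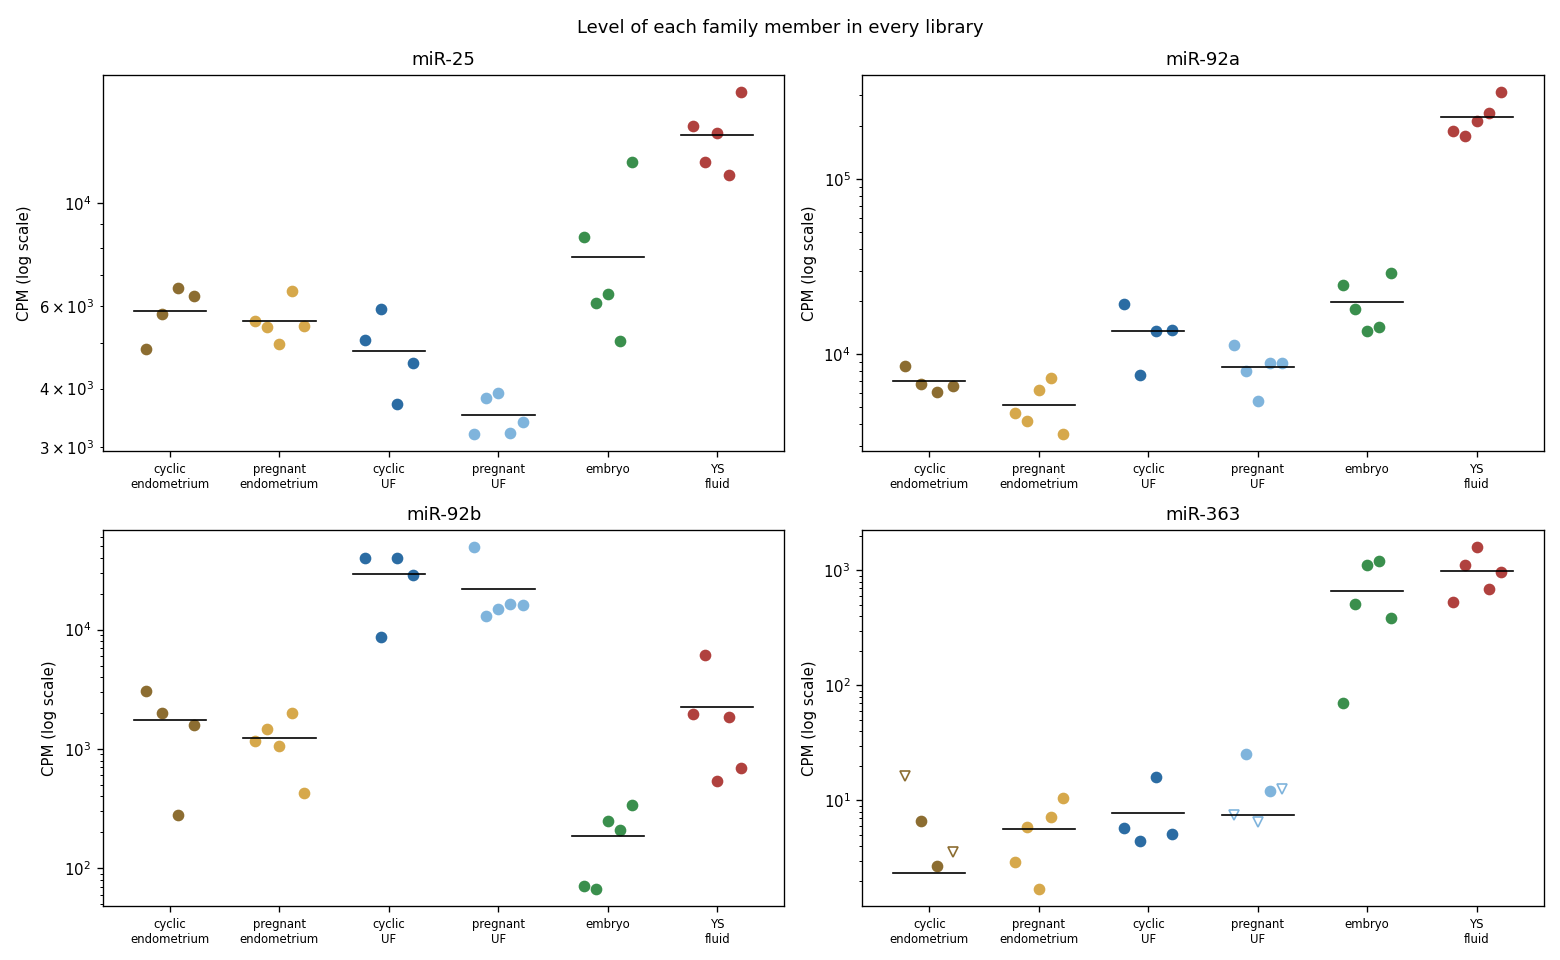
Each panel gives the CPM (log scale, y axis) of a member in every library (points) of the 6 groups (x axis), with the group mean as a line. Open triangles stand at the value of 1 read for libraries with 0 reads. miR-92a is highest in YS fluid, miR-92b in UF, and miR-363 stays at or under 25.1 CPM in all uterine libraries.

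The ratio of miR-92a to miR-92b within a library needs no scaling, and it was on opposite sides of 0 (equal reads) in UF and at the other sites. In cyclic UF the log2 ratio was -1.04, -0.20, -1.57 and -1.07 in mares 1 to 4, and in pregnant UF -2.14, -0.71, -1.45, -0.89 and -0.84 in mares 1 to 5. All 9 UF libraries thus had more miR-92b than miR-92a, between 1.15 and 4.40 reads of miR-92b per read of miR-92a.

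The endometrium of the same mares had more miR-92a in all 9 biopsies. The log2 ratio was 1.48, 1.75, 4.44 and 2.05 in cyclic and 1.99, 1.49, 2.55, 1.86 and 3.04 in pregnant endometrium. The lowest endometrial value lay above the highest UF value.

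The conceptus lay at the far end of the scale. Embryos had log2 ratios of 8.13, 7.86, 5.69, 5.98 and 6.37, and YS fluids 6.52, 4.84, 8.54, 6.93 and 8.76. The means were 6.81 ± 1.12 (SD, n = 5) in embryos and 7.12 ± 1.60 (n = 5) in YS fluid, which overlapped, against 2.19 ± 0.61 in pregnant endometrium (n = 5) and -1.21 ± 0.59 in pregnant UF (n = 5). All 10 conceptus libraries lay above all 18 uterine libraries, with 28.9 reads of miR-92a per read of miR-92b in the lowest of them, YS fluid replicate 2. The conceptus ratios rest on 2 to 88 reads of miR-92b per library, so that each carries a counting error of its own.

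**Figure D3:**
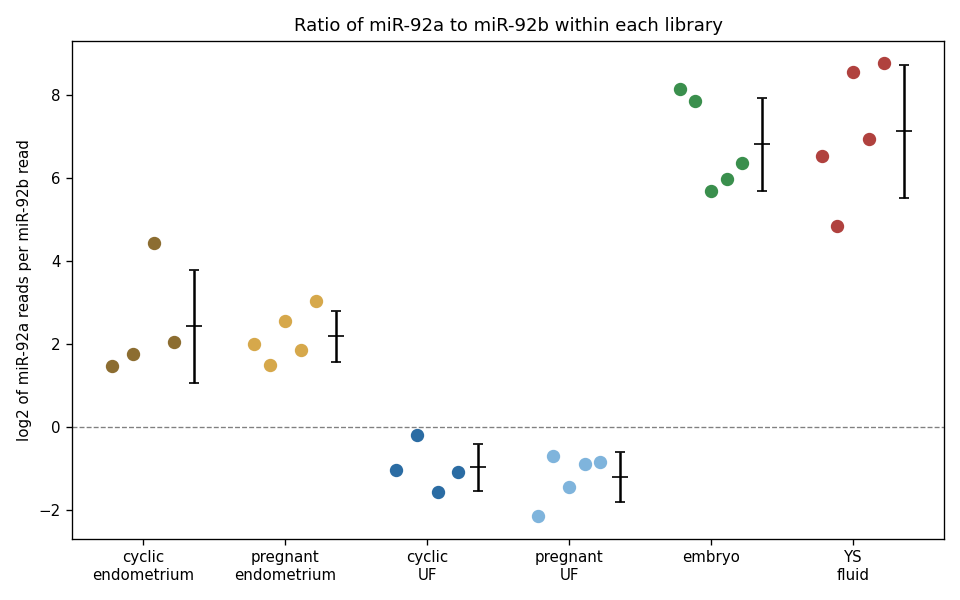
Points give the log2 of miR-92a reads per miR-92b read (y axis, 0.5 reads added to both) in each library of the 6 groups (x axis), with the mean ± SD as a bar beside them. The 9 UF libraries lie below 0, the 9 endometrial libraries between 1.48 and 4.44 and the 10 conceptus libraries between 4.84 and 8.76.

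miR-25, the member carried by MCM7, varied less between the groups than the other 3 members when scaled by library totals. YS fluid held 14634, 12245, 14082, 11489 and 17273 CPM and embryos 8439, 6098, 6381, 5057 and 12197 CPM. Cyclic endometrium held 4852, 5766, 6552 and 6301 CPM and pregnant endometrium 5581, 5426, 4971, 6459 and 5441 CPM. UF had the lowest levels on this scale, with 5078, 5912, 3704 and 4541 CPM in cyclic and 3191, 3825, 3906, 3217 and 3398 CPM in pregnant mares. In this order each group overlapped with the next, and the group means spanned 3507 to 13945 CPM.

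The ratio of miR-92a to miR-25 within a library, looked at after the levels had been seen, set YS fluid apart from the embryo. YS fluids had between 12.8 and 20.7 reads of miR-92a per read of miR-25, and embryos between 2.12 and 2.98. The ranges in the uterine samples were 0.641 to 1.76 in endometrium and 1.28 to 3.82 in UF. The gap between YS fluid and every other group lies within the libraries and does not come from their totals.

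miR-363, encoded only by the cluster of the X chromosome in mammals, was found almost only in the conceptus. Embryos held 2, 23, 40, 35 and 16 reads, or 70.9, 514, 1105, 1212 and 386 CPM in replicates 1 to 5, and YS fluids 4, 16, 21, 3 and 14 reads, or 527, 1107, 1607, 689 and 963 CPM. No uterine library had more than 3 reads, which is the floor, although these libraries were deeper. In total, 9 reads were found among 1840629 in pregnant endometrium and 4 among 569244 in pregnant UF.

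Summed over libraries, the rate of miR-363 reads in embryos was 132 times that in pregnant endometrium (95% exact counting interval 67.3 to 296) and 91.99 times that in pregnant UF (35.0 to 343). These ratios rest on the 9 and 4 uterine reads, and the intervals give that counting error alone. YS fluid had 219.7 times the rate of pregnant endometrium (108 to 504) and 153 times that of pregnant UF (56.6 to 579.9). Embryo replicate 1, which stood apart above, had the lowest miR-363 level of the conceptus libraries, 2 reads, under the floor. Embryo and YS fluid overlapped.

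Another pair of miRNAs has the family's seed or a close form of it, miR-32 and miR-367, and both were scarce. miR-32 had between 0 and 13 reads in any library, with 0 reads over all 5 YS fluids. The floor of the YS fluids, 206 to 689 CPM, lay above the highest group mean of miR-32, 52.4 CPM in embryos. Those 0 reads therefore do not show absence. miR-367, which is transcribed with the miR-302 genes of pluripotent cells, had 40 reads in embryos (0 to 19 per library) and 6 in YS fluids (1 or 2 per library). It had 0 reads in each of the 18 uterine libraries, as deep as these were.

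Whether pregnancy changed the family in the uterus was tested in the 4 mares with both cycles. Calls were made with edgeR's quasi-likelihood test after TMM normalization, with the mare as a block and over all miRNAs with enough reads, where the Benjamini-Hochberg FDR was 0.05 or less and the level differed by a fold of 2 or more. In endometrium, 0 of 4 members were called, and 3.37% of the 386 miRNAs tested were. The log2 fold change of pregnant against cyclic endometrium was 0.17 for miR-25 (SE 0.22, FDR 0.826, 95% interval -0.27 to 0.61), -0.11 for miR-92a (SE 0.22, FDR 0.915, -0.55 to 0.32) and 0.31 for miR-92b (SE 0.28, FDR 0.778, -0.25 to 0.86). In each case the pregnant level in CPM was higher in 2 of 4 mares. The SEs and intervals here and in UF draw on the spread of all miRNAs tested. They do not measure the spread between these mares alone. The value for miR-92b depended on single mares: without mare 3, whose cyclic biopsy was low, the log2 fold change was -0.44 (SE 0.31), outside the interval given. Without mare 1 it was 0.70 (SE 0.30). DESeq2 gave 0.24 with an SE of 0.41. The interval for miR-92b is therefore not taken to exclude a fold of 2.

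In UF, 0 of 4 members were called as well, and 4.92% of the 305 miRNAs tested were. The log2 fold change was -0.35 for miR-25 (SE 0.35, FDR 0.834, 95% interval -1.04 to 0.35), -0.58 for miR-92a (SE 0.33, FDR 0.464, -1.23 to 0.074) and -0.24 for miR-92b (SE 0.32, FDR 0.905, -0.87 to 0.39). miR-92a was lower in the pregnant cycle in 3 of 4 mares, and its interval includes both no change and a fall by more than a fold of 2. The sign for miR-92b again turned without mare 3, to 0.17. miR-363 passed the low filter in both compartments but was at or under the floor in every library of both groups, so no fold change between them is given. In both comparisons edgeR found 0 members at an unadjusted p below 0.05, and DESeq2 called 0.

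The pregnancy effect was compared between UF and endometrium as an interaction. Of the 4 members 0 were called, and 1.69% of the 415 miRNAs tested were. The difference of the log2 fold changes (UF minus endometrium) was -0.64 for miR-25 (SE 0.39, FDR 0.916), -0.58 for miR-92a (SE 0.41, FDR 0.932) and -0.67 for miR-92b (SE 0.52, FDR 0.932), with 0 members at an unadjusted p below 0.05. Without mare 3 the last 2 of these turned to 0.025 and 0.53.

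The ratio of miR-92a to miR-92b was compared over the same mares. In endometrium the log2 ratio differed by -0.45 ± 1.02 between pregnant and cyclic samples of a mare (mean ± SD, n = 4, higher in pregnancy in 1 of 4, two-sided exact sign-flip test p = 0.625). In UF it differed by -0.33 ± 0.60 (n = 4, higher in 2 of 4, exact p = 0.5). With 4 mares this test cannot give a p below 0.125.

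**Figure D4:**
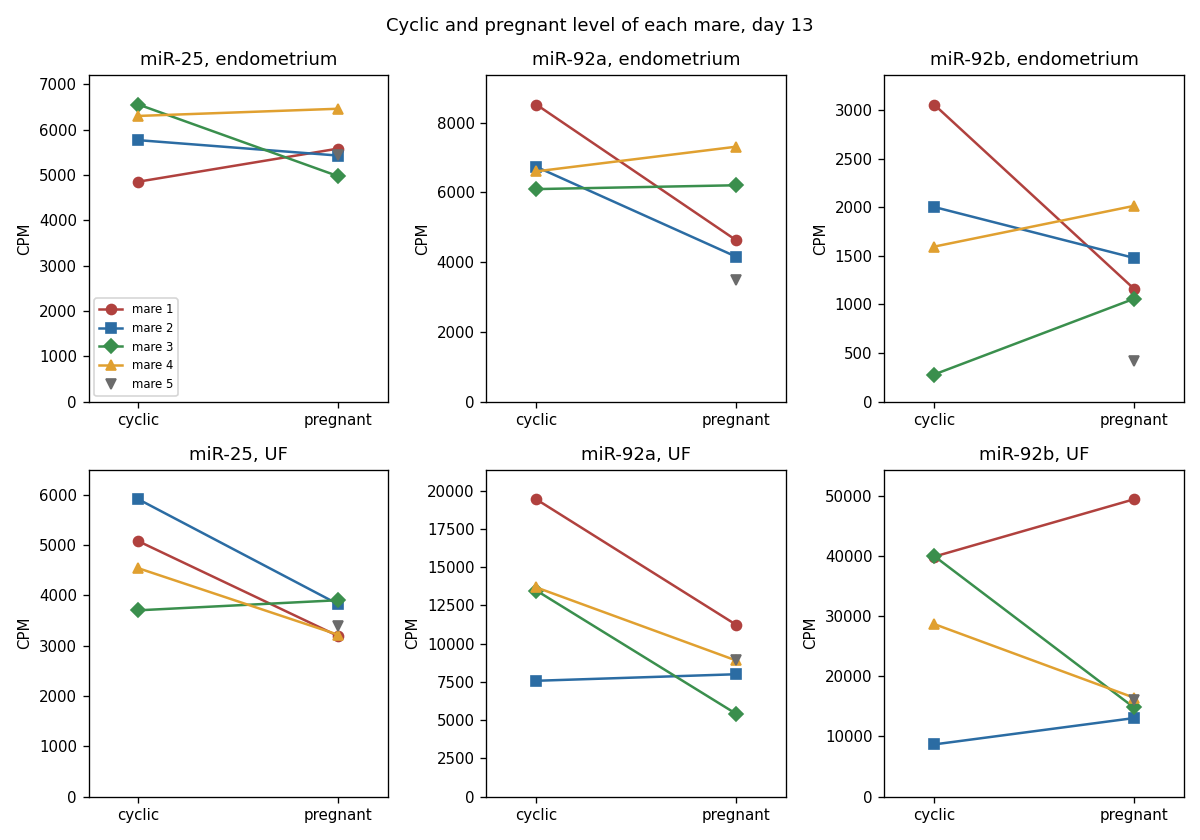
Lines join the cyclic and the pregnant CPM (y axis) of mares 1 to 4, with mare 5 as a lone pregnant point, for miR-25, miR-92a and miR-92b (columns) in endometrium and UF (rows). Lines run in both directions in all 6 panels.

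Between tissues and fluids, fold changes of the members were fitted with the same method without a block, and they depend on how libraries are scaled. With library totals in place of TMM, an alternative chosen after the data were seen, the median log2 fold change of all miRNAs tested moved by 1.33 between embryo and endometrium, 2.00 between YS fluid and endometrium, 1.41 between embryo and UF and 1.68 between YS fluid and UF. The shift was 0.12 and 0.16 between UF and endometrium of pregnant and cyclic mares, and it was -0.61 between embryo and YS fluid. RLE size factors lay between TMM and library totals in the comparisons of conceptus with uterus. Values below are from TMM, and the members named as turning sign did so under another scaling. No fitted fold change is given for miR-363 against uterine samples, all of which were at or under its floor.

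With the limits used above (FDR of 0.05 or less and a fold of 2 or more), 1 of 4 members was counted between UF and endometrium in pregnant mares, beside 33.7% of all miRNAs tested, and 1 of 4 in cyclic mares, beside 30.8%. For YS fluid the counts were 2 of 4 against pregnant endometrium (beside 53.1%) and 3 of 4 against pregnant UF (beside 59.6%). For embryos they were 2 of 4 against pregnant endometrium (beside 71.3%), 2 of 4 against pregnant UF (beside 68.4%) and 2 of 4 against YS fluid (beside 35.1%). miR-363 is among those counted against uterine samples. It had a read in 2 of 5 pregnant UF libraries, so it entered the comparisons with pregnant UF only through the conceptus, where it is high.

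UF and endometrium were furthest apart in miR-92b. It had a log2 fold change of 4.07 (SE 0.48) in pregnant and 4.16 (SE 0.63) in cyclic mares, and between 4.04 and 4.35 over the scalings. For pregnant mares miR-92a was at 0.59 (SE 0.27) and miR-25 at -0.78 (SE 0.21), both inside a fold change of 2. In cyclic mares miR-92a was at 0.88 (SE 0.35), and at 1.08 under RLE. These comparisons share mares, and the pregnant groups also serve the comparisons with the conceptus.

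Between YS fluid and pregnant endometrium, miR-92a had a log2 fold change of 3.46 (SE 0.38). Against pregnant UF miR-92a was at 2.99 (SE 0.31) and miR-92b at -4.84 (SE 0.74). With library totals miR-92a was at 5.46 against endometrium and 4.74 against UF, while miR-92b in YS fluid stayed below UF at -3.27. miR-25 turned from -0.69 to 1.33 against endometrium, and miR-92b from -1.10 to 0.89, so neither has a direction there that holds over the scalings. Without YS fluid replicate 2 the miR-92b value against endometrium was -2.31 (SE 0.48).

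Between embryos and pregnant endometrium, miR-92b had a log2 fold change of -4.06 (SE 0.57), and against pregnant UF -8.43 (SE 0.65). miR-92b remained lower with library totals, at -2.71 and -6.86. miR-25 turned from -0.89 to 0.46 against endometrium and from -0.44 to 1.12 against UF, and miR-92a turned from -0.30 to 1.23 against UF. Against endometrium miR-92a was at 0.62 (SE 0.28), and at 1.09 with RLE and 1.95 with library totals.

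Between embryos and YS fluid, miR-92a had a log2 fold change of -2.86 (SE 0.27) in embryos and miR-92b of -3.06 (SE 0.82). With the conceptus as a block miR-92b was at -2.47 (SE 0.88) and no longer past the limits. Without YS fluid replicate 2, the library with 88 reads of miR-92b, it was at -1.93 (SE 0.63). miR-25 was at -0.26 (SE 0.31) and miR-363 at -0.017 (SE 0.72).

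**Figure D5:**
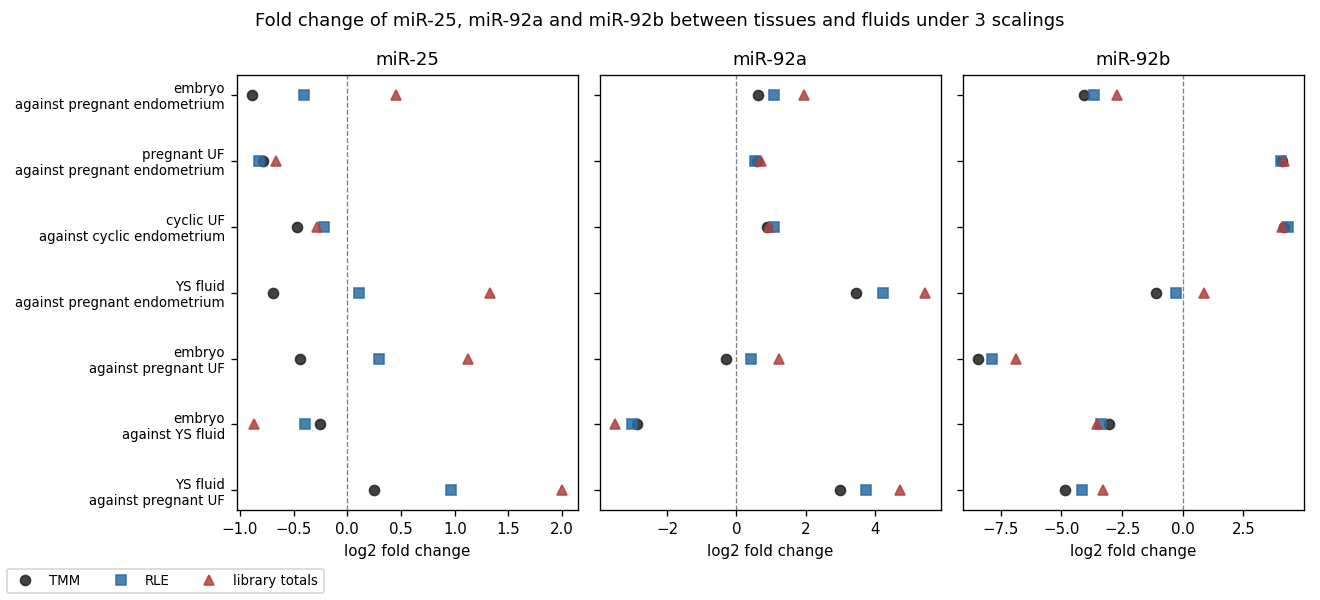
Points give the log2 fold change (x axis) of miR-25, miR-92a and miR-92b (panels) in the 7 comparisons of tissues and fluids (y axis) under TMM, RLE and library totals. miR-92a stays above 0 in both comparisons of YS fluid with uterine samples and miR-92b below 0 in both of the embryo with uterine samples, while miR-25 changes side in 3 of the comparisons.

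The cluster partners of the members were taken as a list of 10, miR-17, miR-18a, miR-19a, miR-19b and miR-20a of the miR-17-92 cluster, miR-106a, miR-18b and miR-20b of the miR-106a-363 cluster, and miR-106b and miR-93 beside miR-25. Their summed level was 37914 to 99801 CPM in YS fluid, 27042 to 41200 CPM in embryos and 2254 to 7357 CPM in the 18 uterine libraries. Conceptus and uterine libraries did not overlap. Embryo and YS fluid overlapped, unlike for miR-92a. miR-17 and miR-106a had close counts, 776 and 736 reads over the embryos and 508 and 494 over the YS fluids. Whether the same reads were counted for both was not tested. Reads shared by them would enter the sum more than once, and their calls below are not taken as separate.

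In pregnant against cyclic samples, 0 of the 9 partners tested were called in endometrium (median log2 fold change 0.41, all miRNAs tested 0.08) and 0 of 9 in UF (median 0.32, all miRNAs tested 0.01). Between embryo and pregnant endometrium 9 of 10 were called, all higher in the embryo, with a median of 3.07 against -1.02 for all miRNAs tested. Of these, miR-18b had 0 reads in pregnant endometrium, and miR-20b had a read in 4 of its 5 libraries. Both passed the filter only through the embryo. Their log2 fold changes, 6.92 and 7.14, were the largest of the 10, and both enter that count and median. For YS fluid and pregnant endometrium 7 of 9 were called higher and 1 lower, with a median of 1.66 against -0.84. There 61 of 341 miRNAs tested were called higher, and miR-20b again passed the filter only through the conceptus. Between embryo and YS fluid, 2 of 10 were called higher in the embryo (miR-106b and miR-19a) and 1 lower (miR-20b). Of the 259 miRNAs tested 57 were called higher in the embryo. In YS fluid miR-106b was at or under the floor in 2 of 5 libraries and miR-19a in 3 of 5. The percentages of all miRNAs called, in either direction, are those given for the members.

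Between embryo and YS fluid the ratio of miR-92a to miR-20a differed without overlap, while that of miR-363 to miR-20b overlapped. Embryos had between 2.10 and 4.84 reads of miR-92a per read of miR-20a, a partner in the miR-17-92 cluster, and YS fluids between 27.1 and 94.1. The miR-92a reads can come from both copies, so this is not a ratio within a single cluster. The level of miR-20a itself was 5082 to 8645 CPM in embryos and 2528 to 7883 CPM in YS fluid. miR-20b, the partner of miR-363, was at 2016 to 4110 CPM in embryos and 12868 to 28624 CPM in YS fluid, and at most 20.5 CPM in uterine libraries. It was between 3.13 and 14.2 times higher in YS fluid than in the embryo of the same conceptus, higher in 5 of 5. Embryos had between 0.0274 and 0.548 reads of miR-363 per read of miR-20b, and YS fluids between 0.0256 and 0.0860. These overlapping ranges rest on 2 to 40 reads of miR-363 per embryo and 3 to 21 per YS fluid. The lowest embryo value is that of replicate 1, with 2 reads.

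The 2 partners of miR-25 differed within the conceptus. miR-106b was lower in YS fluid than in the embryo in 5 of 5 conceptuses, at between 0.106 and 0.630 times, while miR-93 was higher in 5 of 5, at between 1.30 and 2.16 times. In YS fluid miR-106b had 1 to 12 reads and was at or under the floor in 2 of 5 libraries. Its lowest ratio rests on 1 read. miR-25 was higher in YS fluid in 5 of 5, at between 1.42 and 2.27 times. These ratios are of CPM by library total, which moves the median of all miRNAs toward YS fluid by the 0.61 given above. In the fit with TMM, embryo against YS fluid, the log2 fold change was 2.08 (SE 0.64) for miR-106b, -0.086 (SE 0.33) for miR-93 and -0.26 (SE 0.31) for miR-25. Of the 3, miR-106b passed the call, and miR-93 and miR-25 had intervals that include 0 there.

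Blood and leukocyte miRNAs were looked at beside the high miR-92a of YS fluid, since miR-92a is also abundant in blood cells. The red blood cell list (miR-451, miR-144 and miR-486-5p) summed to 230 to 1379 CPM in YS fluid and to 112 to 314 CPM in embryos, against 2670 to 13410 CPM in endometrium and 502 to 3233 CPM in UF. miR-144 had 0 reads in all 10 conceptus libraries, and also 0 in cyclic UF and 1 in pregnant UF. The floor of the YS fluids, 206 to 689 CPM, lay above the highest level of miR-144 in any library, 176 CPM in cyclic endometrium. Its 0 reads in YS fluid therefore do not show absence. The leukocyte list (miR-223, miR-142-3p, miR-142-5p and miR-150) had 0 reads for 4 of 4 members in YS fluid and summed to at most 55.2 CPM in embryos. Of these, miR-142-3p, at most 69.8 CPM in any library, was under the YS fluid floor as well. The red blood cell sums of YS fluid lay below those of every endometrial biopsy and overlapped with those of UF and embryos, and their part in its miR-92a level was not tested.

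Epithelial miRNAs were looked at beside the high miR-92b of UF. The list of 6 (miR-200a, miR-200b, miR-200c, miR-141, miR-429 and miR-205) summed to between 50510 and 97730 CPM in UF and to between 49244 and 72098 CPM in endometrium, and the groups overlapped. miR-205 of the same list did not overlap, at 505 to 3040 CPM in UF and 5.81 to 262 CPM in endometrium, and its part in the UF difference was not tested. Each of the others on the list overlapped. miR-141, for one, was at 2722 to 11729 CPM in UF and 3433 to 14668 CPM in endometrium. Embryos, which had the least miR-92b, summed to between 93710 and 131812 CPM, with miR-205 at 22.3 to 35.5 CPM. The smooth muscle and stroma miRNAs summed to between 186 and 3069 CPM in UF and to between 6708 and 34349 CPM in endometrium, without overlap, and their part in the UF difference was not tested.

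For each member, the 3 known miRNAs most like it were those with the highest Pearson correlation of log2(CPM + 1) over the 6 group means, among 150 others with a mean of at least 100 CPM. The points share libraries, depth and kits, and the correlations are a description. miR-92b was most like miR-34b-3p (r = 0.995), miR-205 (r = 0.972) and miR-449b (r = 0.967). The likeness to miR-34b-3p also showed within UF, where that miRNA was at 7724, 791, 8375 and 7871 CPM in cyclic mares 1 to 4 and at 10576, 1624, 3402, 4097 and 3777 CPM in pregnant mares 1 to 5. In both miRNAs mare 1 was highest and mare 2 lowest in the pregnant cycle, and mare 2 was lowest in the cyclic one. The other likenesses of miR-92b did not show within UF. miR-205 was lowest in mare 1 in both cycles, at 1228 CPM (cyclic) and 505 CPM (pregnant). In the cyclic one it was highest in mare 2, at 3040 CPM. miR-449b was lowest in mare 3 among cyclic UF, at 177 CPM, and highest in mare 5 among pregnant UF, at 505 CPM. In pregnant endometrium the low replicate 5 of miR-92b was not low in miR-34b-3p, at 247 CPM in a range of 154 to 307 CPM.

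miR-363 was most like miR-302a (r = 0.998), miR-302d (r = 0.995) and miR-18a (r = 0.993), of which the first pair had at most 12.1 CPM in any uterine library and miR-18a is a cluster partner. The uterine means of miR-363, 2.33 to 7.85 CPM, come from libraries at or under the floor. These r therefore rest mainly on the step from uterus to conceptus. miR-25 was most like miR-107a (r = 0.930), miR-103 (r = 0.928) and miR-193b (r = 0.927). miR-107a and miR-103 had close counts, such as 323 and 353 reads in YS fluid replicate 3. Whether they share reads was not tested, so they are not taken as separate likenesses. miR-92a was most like miR-194 (r = 0.957), miR-193b (r = 0.939) and miR-128 (r = 0.938). The YS fluid mean of miR-193b rests on replicates 3 and 5, with 25 and 22 reads. Replicates 1, 2 and 4 held 2, 1 and 1 reads, under the floor, whereas miR-92a was high in all 5. Of the members themselves, miR-92a and miR-25 had r = 0.855, whereas miR-92a and miR-92b had r = -0.12.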

How the data were processed

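Per the labels and the study's methods, the authors trimmed adapters with cutadapt 1.11, counted reads on known horse miRNAs and predicted others on EquCab2.0 with miRPro, and deposited raw read counts without normalization. The precursor counts, equal to those of the predicted miRNAs in 154 of 154 entries, were not used. Counts of 28 libraries were analysed in edgeR 4.0.16 and R 4.3.3: a miRNA entered a comparison if it reached 1 CPM in a number of libraries equal to the smaller group, followed by TMM, glmQLFit and glmQLFTest. The mare was the block for pregnant vs. cyclic samples, as in the study. Same-mare deviations correlated at 0.21 to 0.38 in endometrium and -0.04 to 0.59 in UF. Libraries of a group differed by more than sampling noise (chi-square per degree of freedom at least 7.35). Members and lists were chosen with earlier results of these data known. Named miRNAs were the members, their seed relatives, cluster partners and the 3 most alike. Alternatives were DESeq2 1.42.0, RLE, other filters and features, the block added or removed, libraries left out and, added later, library totals. Python 3.11.15, numpy 2.4.6, pandas 2.3.3 and scipy 1.17.1 were used elsewhere.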

Additional observations from a re-analysis of the deposited data

Results flagged for a closer look

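A library was set apart where its gap to the nearest other of its group exceeded Dixon's critical value, over 32 groups of values, of which chance alone would give about 1 in 20. In pregnant UF, replicate 1 held 49431 CPM of miR-92b against 13047 to 16449 CPM in the others. Its family level, 63852 CPM against 24133 to 28571 CPM, follows from the same miRNA. In YS fluid, replicate 2 held 6088 CPM of miR-92b (88 reads) against 536 to 1978 CPM. The same fluid also held the highest sum of early embryo miRNAs, 264130 CPM, and the lowest epithelial sum of the YS fluids, 48703 CPM, and their part in its miR-92b level was not tested.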

How the results depend on the processing

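The shallow YS fluids limit miR-92b and miR-363 there to between 3 and 88 reads a library, and the embryos to between 2 and 40. With the mare as the pairing, 0 members were called in pregnant vs. cyclic samples under every alternative run, and the ratio of miR-92a to miR-92b moved by less than its SD under all of its 40. Removing the block turned miR-92b in pregnant vs. cyclic endometrium to -0.21, and library totals turned miR-25 there to -0.063. Adding the conceptus as a block to embryo against YS fluid left 1 member called in place of 2. Over all alternatives, 472 kept the direction and the call of a member's log2 fold change, 22 brought a call that the fit reported did not give, 1 lost a call and 33 turned the sign; the cause was not tested.

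Against pregnant endometrium, library totals turned miR-25 in the embryo to 0.46, and in YS fluid miR-25 to 1.33 and miR-92b to 0.89. DESeq2, RLE and known miRNAs only put miR-25 in YS fluid at 0.11, 0.11 and 0.086. For the embryo against pregnant UF, DESeq2, RLE, filterByExpr, known miRNAs only and library totals gave 0.30, 0.30, 0.0075, 0.048 and 1.12 for miR-25 and 0.42, 0.42, 0.13, 0.17 and 1.23 for miR-92a, which was at 0.046 with no low filter. In that comparison 4 members were called with library totals and 1 with filterByExpr, which did not keep miR-363. In cyclic UF against cyclic endometrium DESeq2, RLE and filterByExpr called 2 members (miR-92a and miR-92b) in place of 1. TMM-normalized CPM over the 28 libraries put the family level at 23278 CPM in cyclic and 20407 CPM in pregnant endometrium, 67679 CPM in cyclic UF, 16827 CPM in embryos and 96173 CPM in YS fluid, so that embryos were the lowest and YS fluid the highest. For embryo against pregnant endometrium 3 members were called in place of 2 with DESeq2, RLE, filterByExpr and library totals (miR-92a added) and without embryo replicate 1, 4 or 5 (miR-25 added, at -1.15, -1.03 and -1.22). For YS fluid against pregnant endometrium 3 were called with no low filter, with the replicate block (miR-92b added, at -1.49) and with library totals, and without YS fluid replicate 2 (miR-92b added, at -2.31), 3 or 5 (miR-25 added, at -1.02 and -1.15). Against pregnant UF 4 in place of 3 were called with filterByExpr and library totals (miR-25 added, at 1.13 and 2.00).

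Leaving out a mare in turn gave -0.029 to 0.17 for miR-25 and -0.44 to 0.70 for miR-92b in pregnant vs. cyclic endometrium, and -0.62 to 0.17 for miR-92b in UF. The interaction ranged from -0.87 to 0.025 for miR-92a and from -1.11 to 0.53 for miR-92b. Leaving out a library gave -0.40 to 0.038 for miR-25 in cyclic UF against cyclic endometrium, where 1 to 2 members were called, -0.41 to 0.056 for miR-92a in embryo against pregnant UF and -0.46 to 0.28 for miR-363 in embryo against YS fluid.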
